A study of Homo sapiens with 6 samples.

Results

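The 9 aldehyde dehydrogenase genes described here are ALDH1A1, ALDH1A3, ALDH1B1, ALDH2, ALDH3A1, ALDH3A2, ALDH3B1, ALDH7A1 and ALDH9A1. They were picked by gene symbol from the 19470 symbols of a count table, and all 9 were found. The table held 10 further genes of the aldehyde dehydrogenase superfamily, which serve as context. The cells were A549, an established line of human lung adenocarcinoma whose genotype the labels give as WT. One group of 3 libraries had a treatment labelled as inducing dormancy, and the other group of 3 libraries had been activated with osteoclast conditioned medium, that is, medium in which bone-resorbing cells had grown. The labels name neither the agent that made cells dormant nor the plain medium of either group, so osteoclast products and a difference of medium cannot be told apart. The study asked which genes differ between dormant and activated cells.

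Aldehyde dehydrogenases oxidise aldehydes to carboxylic acids with NAD or NADP as cofactor. They clear aldehydes from ethanol, lipid peroxidation and amine breakdown, and those of the ALDH1A branch make retinoic acid, the ligand of the nuclear retinoic acid receptors. In tumours, high aldehyde dehydrogenase activity is widely used to sort stem-like cells, and A549 is known for strong expression of ALDH1A1 and ALDH3A1.

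Total counts per library lay between 34128471 and 36667725. Libraries of a group correlated at 0.994 to 0.996 in log2 CPM (counts scaled to a library total of 1e+06) across genes, and libraries of different groups at 0.925 to 0.928, genes not being independent replicates. Counts of replicates differed by more than sampling noise, so each library was counted once. The labels do not tie replicates to separate cultures, so p-values reflect the spread among these libraries alone, and that spread may be technical. In bulk RNA, more cells expressing a gene and more RNA per cell cannot be told apart. The epithelial keratin KRT8 stood at 1672 ± 71.8 CPM (SD, n = 3) in dormant and 3460 ± 168 CPM in activated cells, and KRT18 and KRT7 were also abundant. Of the 6 epithelial markers listed, 3 were higher and 2 lower, where 36.5% of all genes tested were called higher and 37.2% lower. EPCAM, another of them, was near the lower end of detection, with 145 counts over the dormant and 62 over the activated libraries. Of 12 osteoclast and myeloid markers, 6 could be tested, 3 were higher and 2 lower, and the summed level of the list was 18.2 to 19.5 CPM in dormant and 25.2 to 26.7 CPM in activated libraries. Of the 12, TYROBP, DCSTAMP, OCSTAMP, CALCR and AIF1 had 0 counts in every library, while CD14 rose 8.37-fold to 9.25 CPM and CTSK fell 1.32-fold. TNFRSF11A, named after its values were seen, had 949 dormant and 771 activated counts and did not pass the threshold. Named after their values were seen, the other risers were LAPTM5 (25 to 214 counts) and CSF1R (10 to 79 counts), and ACP5, the tartrate-resistant phosphatase of osteoclasts, fell from 63 to 5 counts.

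Activated cells had more RNA of 6 of the 9 genes, less of ALDH1A3, and did not differ past the threshold for ALDH3A2 and ALDH9A1. ALDH1A1 rose 4.90-fold from an already high level. ALDH7A1, ALDH2, ALDH1B1 and ALDH3A1 rose 1.51-fold to 1.94-fold, and ALDH3B1 rose 1.10-fold. All 9 genes passed the filter on low counts in both groups. Genes were called at an adjusted p of 0.05 (quasi-likelihood test of edgeR, 13336 genes), and 36.5% of those genes were called higher, 37.2% lower and 73.7% in either direction. The 7 called members of 9 are close to the share of all genes. The median log2 fold change of the 9 members was 0.59, against -0.02 for all genes tested. A change of at least 2-fold upward was called for ALDH1A1 alone among the members, against 11.2% of all genes. CPM values of the groups did not overlap for 7 members, against 76.5% of all genes. TMM factors correct for a few genes taking many reads. When libraries were scaled by total counts instead, the median of all genes moved to -0.16, 5 members were higher and 2 lower, ALDH3B1 was no longer called and ALDH3A2 was called lower.

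**Figure D1:**
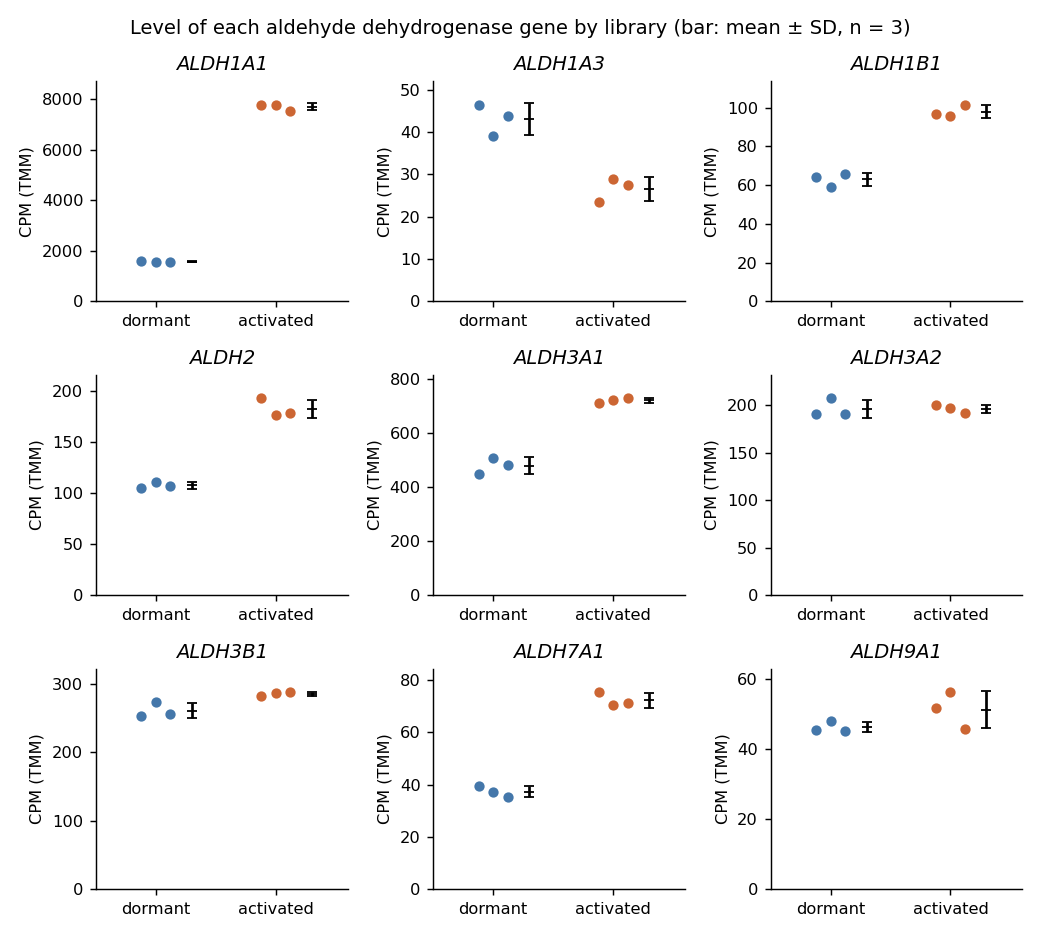
Points give TMM-scaled CPM of each of the 9 genes in each of the 3 dormant (blue) and 3 activated (orange) libraries, each panel starting at 0, and bars give mean ± SD. ALDH1A1 sits between 1559 and 1589 CPM in dormant and between 7548 and 7786 CPM in activated libraries, and ALDH1A3 is the gene whose activated points all lie below the dormant ones.

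ALDH1A1, a cytosolic enzyme that oxidises retinaldehyde and the best known stem-cell marker of the family, lies on chromosome 9 from 72900671 to 72953053 on the minus strand (GRCh38.p14, RefSeq). It measured 1589, 1559 and 1563 CPM in the dormant libraries and 7767, 7786 and 7548 CPM in the activated libraries. Every activated library was far above every dormant one, and the spread within each group was small beside the difference. The means were 1570.31 ± 16.1 CPM and 7700.45 ± 132 CPM (SD, n = 3), with a log2 fold change of 2.29 ± 0.05 (SE) and an adjusted p of 1.54e-14. Only 5.02% of the genes tested changed by more in either direction. Its reads made up 0.165% of all counts in dormant and 0.734% in activated cells, and its rank by CPM among all genes went from 33 to 4. None of its 2360 distinct stretches of 50 transcript bases occurs in another GENCODE 29 gene.

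ALDH1A3, the other retinaldehyde dehydrogenase with a measurable level, lies on chromosome 15 from 100879831 to 100916626 on the plus strand. It measured 46.5, 38.9 and 43.8 CPM in dormant and 23.4, 28.96 and 27.4 CPM in activated libraries. The groups did not overlap, and the gene fell 1.62-fold (log2 fold change -0.69 ± 0.09 SE, adjusted p = 4.35e-06). Of its exonic length, 27.5% is also covered by AC015712.2, an antisense gene, and the use of strand in counting is not stated, so reads of the pair may not be told apart. The ratio of ALDH1A1 to ALDH1A3 in deposited FPKM (reads scaled by gene length and library total) was 56.6, 66.2 and 59.1 in dormant and 549.1, 445 and 456 in activated libraries. That ratio was 7.97-fold higher on average, with an exact two-sided permutation p of 0.1, the smallest that 3 against 3 libraries can give. ALDH1A2, the remaining gene of this branch, had 11 counts over the dormant and 8 over the activated libraries and was not tested.

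The RefSeq promoter windows of this pair, 250 bases before to 50 bases after the start, are shown because the genes make the same product and moved in opposite directions. Capitals mark CCAAT, a common core promoter box, and GCGTG, the core bound by the aryl hydrocarbon receptor, read on either strand (CACGC on the other strand); the motifs do not overlap here.
ALDH1A1 (GRCh38.p14, chr9:72953004-72953303, minus strand): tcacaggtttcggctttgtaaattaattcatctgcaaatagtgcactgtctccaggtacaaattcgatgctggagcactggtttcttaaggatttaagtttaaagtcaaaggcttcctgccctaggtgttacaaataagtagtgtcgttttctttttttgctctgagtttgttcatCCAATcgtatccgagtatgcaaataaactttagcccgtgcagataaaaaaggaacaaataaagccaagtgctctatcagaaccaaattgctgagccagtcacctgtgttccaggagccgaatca
ALDH1A3 (GRCh38.p14, chr15:100879581-100879880, plus strand): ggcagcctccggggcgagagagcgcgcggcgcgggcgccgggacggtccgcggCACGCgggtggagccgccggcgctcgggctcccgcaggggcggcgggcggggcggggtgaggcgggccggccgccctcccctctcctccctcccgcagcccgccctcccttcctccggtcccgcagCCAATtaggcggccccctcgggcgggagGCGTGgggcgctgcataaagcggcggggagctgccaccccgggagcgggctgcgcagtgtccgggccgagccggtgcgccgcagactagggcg
The ALDH1A1 window is 40.3% GC with 7 CpG, and the ALDH1A3 window is 81.7% GC with 46 CpG, against medians of 58.3% and 14 over 27305 promoters. Each holds a single CCAAT in the direction of the gene, at position -74 from the start in ALDH1A1 and -71 in ALDH1A3. Of all promoters, 35.7% hold CCAAT on either strand (36.3% of those of genes tested), and of the 7 members with a window in the table, ALDH1A1, ALDH1A3, ALDH1B1 and ALDH7A1 do. GCGTG was found in ALDH1A3 alone of those 7, against 36.3% of all promoters and 50.6% of the promoters of genes tested. The antioxidant response element core TGACNNNGC, bound by NRF2, was in none of the 7 windows, in 13.6% of all and in 14.9% of those of genes tested. ALDH2 and ALDH3A1 had no window, so no motif was searched in their promoters. These letters describe the windows and do not show binding.

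ALDH2 and ALDH1B1, which are both mitochondrial enzymes, rose. ALDH2, the main enzyme of acetaldehyde clearance after ethanol (chromosome 12, 111766933 to 111817532), measured 105, 111 and 106 CPM in dormant and 193, 177 and 178 CPM in activated libraries. The log2 fold change was 0.76 ± 0.05 (SE), a 1.70-fold rise with an adjusted p of 5.43e-09. ALDH1B1, a close relative of ALDH2 that also takes acetaldehyde (chromosome 9, 38392702 to 38398661), measured 64.1, 59.2 and 65.5 CPM in dormant and 96.7, 95.5 and 102 CPM in activated libraries. It rose 1.56-fold (adjusted p = 8.71e-08). In neither gene did the groups overlap. A readthrough gene annotated as AC002996.1 covers 6.996% of the exonic length of ALDH2 on the same strand.

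ALDH7A1 and ALDH9A1 act in amino acid and amine breakdown and differed from each other. ALDH7A1, which oxidises an aldehyde of lysine breakdown and protects against osmotic stress (chromosome 5, 126541841 to 126595219), measured 39.6, 37.3 and 35.1 CPM in dormant and 75.4, 70.3 and 71.1 CPM in activated libraries. It rose 1.94-fold (log2 fold change 0.95 ± 0.06 SE, adjusted p = 2.85e-09), with no overlap. A pseudogene, ALDH7A1P1, shares 50-base stretches with it, 5.49% of its stretches being found in other genes. ALDH9A1, which oxidises gamma-aminobutyraldehyde and a precursor of carnitine (chromosome 1, 165662216 to 165698562), measured 45.4, 47.9 and 45.2 CPM in dormant and 51.6, 56.2 and 45.7 CPM in activated libraries. Activated replicate 3 lay within the dormant range, and the log2 fold change of 0.15 (95% interval -0.01 to 0.30) missed the threshold at an adjusted p of 0.079. Without that library it was 0.23 with an adjusted p of 0.0127, the only 1 of 17 alternative runs that called the gene. Without activated replicate 2 it was 0.08 (adjusted p = 0.33). With total counts it was 0.01 (adjusted p = 0.93), and in deposited FPKM the ratio of activated to dormant means was 1.005.

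Within the ALDH3 branch, ALDH3A1 rose and its neighbour ALDH3A2 did not pass. ALDH3A1, a cytosolic enzyme of aromatic and lipid-derived aldehydes known from cornea and lung tumours (chromosome 17, 19737984 to 19748298, minus strand), measured 447, 508 and 482 CPM in dormant and 711, 724 and 729 CPM in activated libraries. The rise was 1.51-fold (log2 fold change 0.59 ± 0.05 SE, adjusted p = 9.29e-08), and no activated library overlapped a dormant one. An antisense gene, AC005722.3, covers 2.50% of its exonic length. ALDH3A2, the fatty aldehyde dehydrogenase of the endoplasmic reticulum (chromosome 17, 19648136 to 19677596, plus strand), lies 60387 bases from ALDH3A1. It measured 191, 207 and 190 CPM in dormant and 200, 198 and 192 CPM in activated libraries, which overlapped. In deposited FPKM, scaled by total counts, it was lower without overlap, with means of 51.8 in dormant and 47.1 in activated libraries, a ratio of 0.908. Its log2 fold change was 0.00 (95% interval -0.11 to 0.11, adjusted p = 0.983), and with total counts it was -0.14 with an adjusted p of 0.0252. The ratio of ALDH3A1 to ALDH3A2 in FPKM, which no scaling of libraries can move, was 3.13, 3.28 and 3.39 in dormant and 4.76, 4.90 and 5.08 in activated libraries (exact two-sided permutation p = 0.1, the smallest possible).

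ALDH3B1, which oxidises lipid-derived aldehydes at membranes (chromosome 11, 68008547 to 68029276), measured 252, 273 and 256 CPM in dormant and 282, 287 and 288 CPM in activated libraries. The groups did not overlap in TMM-scaled CPM but overlapped in FPKM, which is scaled by total counts. The log2 fold change of 0.13 ± 0.05 (SE, adjusted p = 0.0234) became -0.01 with total counts (adjusted p = 0.884) and missed the threshold with upper-quartile factors. It also missed it without dormant replicate 1 (0.11, adjusted p = 0.0861), dormant replicate 3 (0.12, adjusted p = 0.0879) or activated replicate 3 (0.13, adjusted p = 0.0742). Its near copy ALDH3B2 had 0 dormant counts and 3 activated counts, all in replicate 2.

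**Figure D2:**
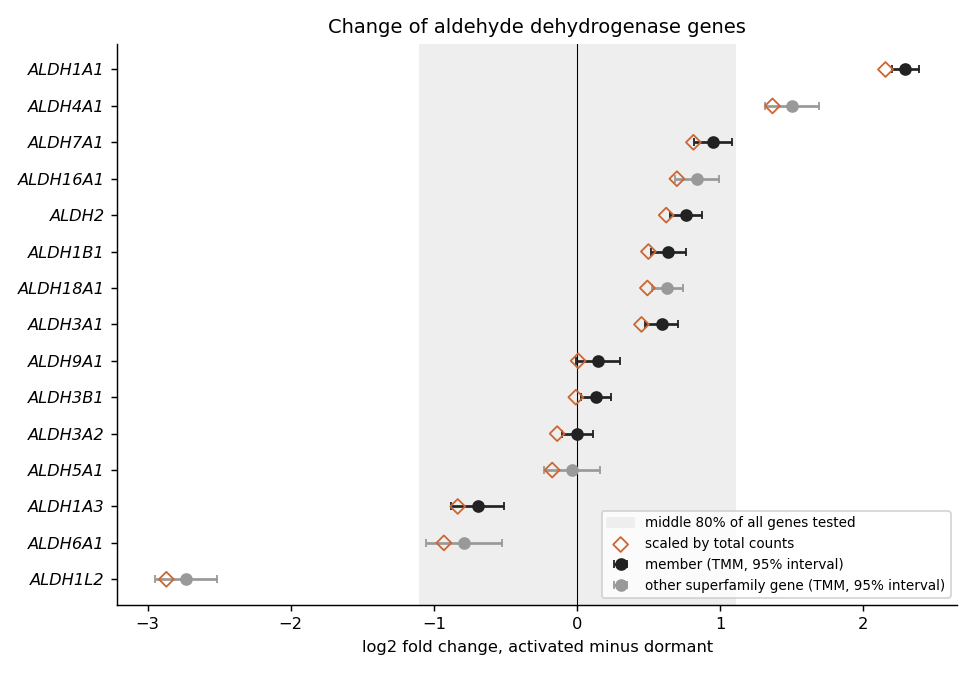
Filled points give the log2 fold change (activated minus dormant) of members (black) and other superfamily genes (grey) with TMM factors and their 95% intervals, open diamonds the value scaled by total counts, and the grey band the middle 80% of all genes tested. ALDH1A1 at 2.29 and ALDH1L2 at -2.73 lie farthest out, and the diamonds of ALDH9A1, ALDH3B1 and ALDH3A2 lie near or below 0.

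Per gene length the members spanned a wide range, and their order changed at its lower end. In dormant cells the deposited FPKM was 786 ± 3.98 (SD, n = 3) for ALDH1A1, 169 ± 12.4 for ALDH3A1, 92.5 ± 4.90 for ALDH3B1 and 51.8 ± 2.999 for ALDH3A2. ALDH1B1 at 21.2 ± 0.967 and ALDH9A1 at 19.2 ± 0.791 followed, and their ranges of 20.14 to 22.04 and 18.73 to 20.13 nearly touched. ALDH1A3 at 13.02 ± 1.03 and ALDH2 at 11.8 ± 0.478 overlapped, and ALDH7A1 was lowest at 8.22 ± 0.471. In activated cells ALDH1A1 stood at 3500 ± 62.1 FPKM and ALDH3A1 at 231 ± 2.92, and the order of the top 6 genes was the same as in dormant cells. ALDH9A1, at 17.24 to 21.23 with a mean of 19.3, and ALDH2 at 18.2 ± 0.879 overlapped, ALDH7A1 stood at 14.4 ± 0.540, and ALDH1A3 was now lowest at 7.30 ± 0.790. The FPKM of ALDH2 rests on a gene length of 9561 bases, while its longest coding length in GENCODE 29 is 1551 bases. Per coding length, ALDH2 ranked 5 of the 9 genes in each group, in place of 8 in dormant and 7 in activated cells. By that measure ALDH1B1 ranked 6 in place of 5 in each group. ALDH9A1 ranked 7 in dormant and 8 in activated cells, in place of 6 in each. ALDH1A3 ranked 8 in place of 7 in dormant cells, and ALDH7A1 ranked 7 in place of 8 in activated cells.

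**Figure D3:**
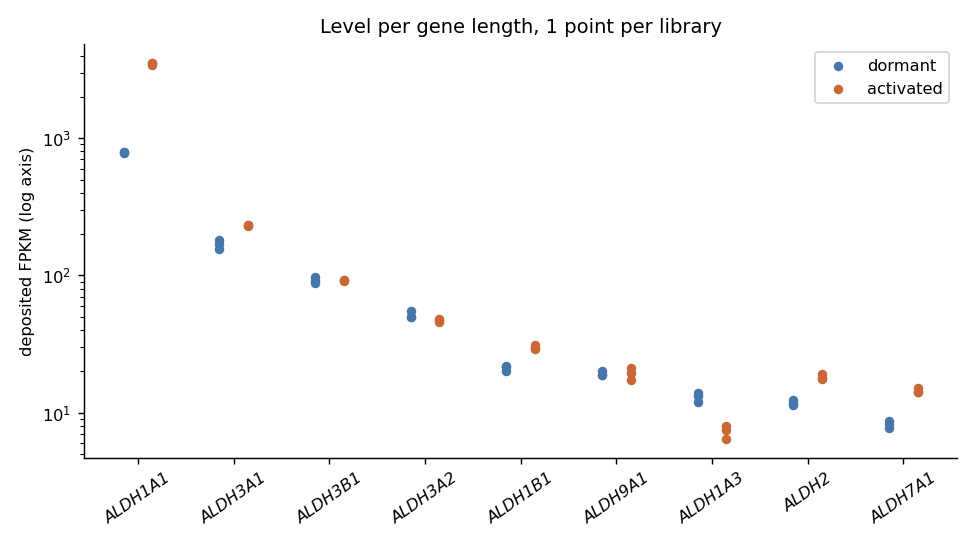
Each point is the deposited FPKM of a gene in 1 library on a log axis, dormant in blue and activated in orange, with genes ordered by their dormant mean. ALDH1A1 leads in both groups, at 786 and 3500 FPKM, and ALDH1A3 and ALDH7A1 exchange the lowest place.

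The 9 genes summed to 1173 ± 20.1 FPKM (SD, n = 3) in dormant and 3959 ± 62.3 FPKM in activated cells. ALDH1A1 made up 68.1%, 65.9% and 67.0% of that sum in the dormant libraries and 88.55%, 88.45% and 88.18% in the activated libraries. These shares depend on the gene lengths behind the FPKM, 2096 bases for ALDH1A1 and 9561 for ALDH2. Shares per coding length were not computed. The share of ALDH3A1 went from 14.4% to 5.84% although its own level rose. Without ALDH1A1 the other 8 genes summed to 387 ± 19.2 and 459 ± 3.08 FPKM, a ratio of 1.19. The ratio of ALDH1A1 to ALDH3A1 was 5.04, 4.35 and 4.60 in dormant and 15.5, 15.2 and 14.7 in activated libraries, with no overlap (exact two-sided permutation p = 0.1, the smallest possible).

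**Figure D4:**
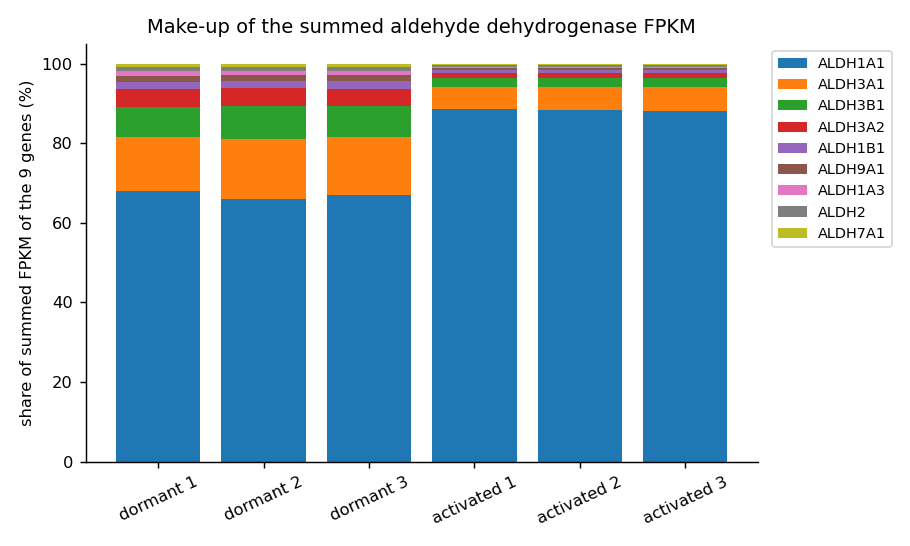
Stacked bars give each gene's share of the summed FPKM of the 9 genes in each library, in percent. The ALDH1A1 share is 65.9% to 68.1% in dormant and 88.18% to 88.55% in activated libraries.

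Of the 10 other superfamily genes, 6 could be tested, of which 3 rose and 2 fell (all genes: 36.5% higher and 37.2% lower). ALDH1L2, the mitochondrial enzyme that oxidises 10-formyltetrahydrofolate, fell from 56.6 ± 2.37 to 8.51 ± 1.48 CPM (SD, n = 3), a 6.63-fold change (adjusted p = 5.19e-12). ALDH4A1, which completes proline breakdown, rose from 11.2 ± 0.749 to 31.9 ± 2.16 CPM, 2.84-fold. A second annotated gene, AL080251.1, covers 41.1% of its exonic length on the same strand, so its counts are uncertain. ALDH18A1, which starts proline synthesis, rose 1.55-fold to 144 ± 4.52 CPM, and ALDH16A1 rose 1.79-fold. ALDH6A1, of valine breakdown, fell 1.73-fold, and BBOF1 on the opposite strand covers 10.03% of its exonic length. ALDH5A1, of GABA breakdown, went from 21.2 ± 0.953 to 20.7 ± 2.17 CPM (log2 fold change -0.03, 95% interval -0.23 to 0.16, adjusted p = 0.745). ALDH8A1 had 11 dormant and 23 activated counts, and was not tested. ALDH1L1 was at 0 counts throughout, and 3 counts over a group would be 0.0281 CPM, the most such a 0 allows.

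Genes of the retinoid pathway, which carry retinol in, convert it and answer to retinoic acid, made a list of 22. Of 18 tested, 9 rose and 3 fell, with a median log2 fold change of 0.37 (all genes: -0.02, 36.5% higher and 37.2% lower). With total counts 8 rose and 4 fell. TGM2, a transglutaminase long known as a retinoic acid target, measured 346, 317 and 325 CPM in dormant and 3829, 4514 and 4255 CPM in activated libraries, a 12.7-fold rise (adjusted p = 6.78e-15). RARRES1, named for its response to retinoic acid receptor ligands, rose 7.53-fold from 6.92 ± 0.272 to 52.1 ± 1.42 CPM. The receptor gene RARA fell from 76.2 ± 1.42 to 40.6 ± 3.92 CPM, and RDH11, a retinal reductase, fell 1.45-fold. Named after their values were seen, RARB, a receptor gene that retinoic acid induces in many cells, went from 1.49 to 8.19 CPM (log2 fold change 2.45), and STRA6, the retinol transporter, from 57.5 to 189 CPM (log2 fold change 1.72). CYP26A1, which degrades retinoic acid, had 12 dormant and 44 activated counts and was not tested. Other genes of the list, also picked after their values were seen, changed less. DHRS3 and CYP26B1 rose 1.29-fold and 1.28-fold, RXRB fell 1.32-fold, and CRABP2 did not pass (adjusted p = 0.0829).

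Other enzymes of aldehyde handling showed mixed changes, where 36.5% of all genes tested were called higher and 37.2% lower. Of 14 tested alcohol dehydrogenases and carbonyl reductases, 7 rose and 2 fell (5 and 4 with total counts), with a median of 0.26. AKR1B1, aldose reductase, rose 2.13-fold, though its activated level of 3336 ± 648 CPM varied widely between libraries. DCXR, a carbonyl reductase, rose 1.69-fold. ADH5, which clears formaldehyde, fell 1.39-fold and AKR1A1, aldehyde reductase, 1.30-fold. AKR1B and AKR1C genes have close copies and their separate counts are uncertain. Of 7 tested glutathione transferases that conjugate or reduce reactive lipids, 5 rose and 1 fell (4 and 2 with total counts). GSTM3 rose 2.58-fold and MGST2 2.12-fold. MGST1 went from 576 ± 14.9 to 516 ± 55.7 CPM, a fall (log2 fold change -0.16, adjusted p = 0.0414) that missed the threshold with DESeq2 size factors (adjusted p = 0.0554) and without any single library other than activated replicate 1.

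ALDH3A1 is known as a target of NRF2, a transcription factor of the response to electrophiles, and of the aryl hydrocarbon receptor, and A549 is known to carry a defect in KEAP1, the sensor of electrophiles that holds NRF2 down. Of 20 NRF2 pathway genes, 14 fell and 5 rose (all genes: 36.5% higher and 37.2% lower), with a median of -0.37. Those that fell include the regulator genes NFE2L2 and KEAP1. They also include NQO1, which is counted again in the aryl hydrocarbon receptor list below, so the lists are not separate. OSGIN1 fell 7.49-fold and GCLC, of glutathione synthesis, 3.48-fold, while TALDO1 and UGDH rose 1.66-fold and 1.52-fold. NFE2L2, which encodes NRF2 itself, was named after its values were seen and fell from 191 to 73.5 CPM (log2 fold change -1.38). Of 7 tested aryl hydrocarbon receptor genes, 6 fell and ARNT did not pass (7 fell with total counts), with a median of -0.75. The receptor gene AHR fell from 177 ± 6.25 to 56.4 ± 2.58 CPM and its repressor AHRR 4.19-fold. ALDH3A1, at a log2 fold change of 0.59, and ALDH1A1, at 2.29, thus stood on the other side of 0 from most genes of these lists. No test of that contrast was made.

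Genes that release aldehydes changed in both directions, as did all genes tested (36.5% higher, 37.2% lower, median log2 fold change -0.02). In amine oxidation, 5 genes were tested, with 3 lower and 2 higher (3 and 1 under total-count scaling) and a median of -1.04. SMOX, spermine oxidase, fell from 832 ± 9.99 to 404 ± 5.24 CPM and AOC2, a copper amine oxidase, fell 4.57-fold, while MAOA, a monoamine oxidase, rose 1.76-fold. Among 8 fatty aldehyde genes, 4 fell and 2 rose (5 and 1 with total counts). SGPL1, which releases a fatty aldehyde from sphingosine phosphate, fell 1.499-fold and SPHK1 2.48-fold. HACL1, of peroxisomal alpha oxidation, rose 1.19-fold, and with total counts its log2 fold change of 0.12 missed the threshold (adjusted p = 0.184). In lysine breakdown, 3 of the 5 genes tested were higher and 1 lower (2 and 1 under total-count scaling), GCDH rising 3.09-fold and DHTKD1 1.54-fold beside ALDH7A1. Outside the naming rule and picked after their values were seen, CRYM, a ketimine reductase of lysine breakdown, went from 327 to 11 counts, and AGMO, which cleaves ether lipids to fatty aldehydes, from 52 to 391 counts. In carnitine synthesis, 1 of 4 rose and 2 fell: TMLHE, its opening enzyme, fell 1.51-fold, SHMT2 1.17-fold, and SHMT1 rose 1.37-fold.

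**Figure D5:**
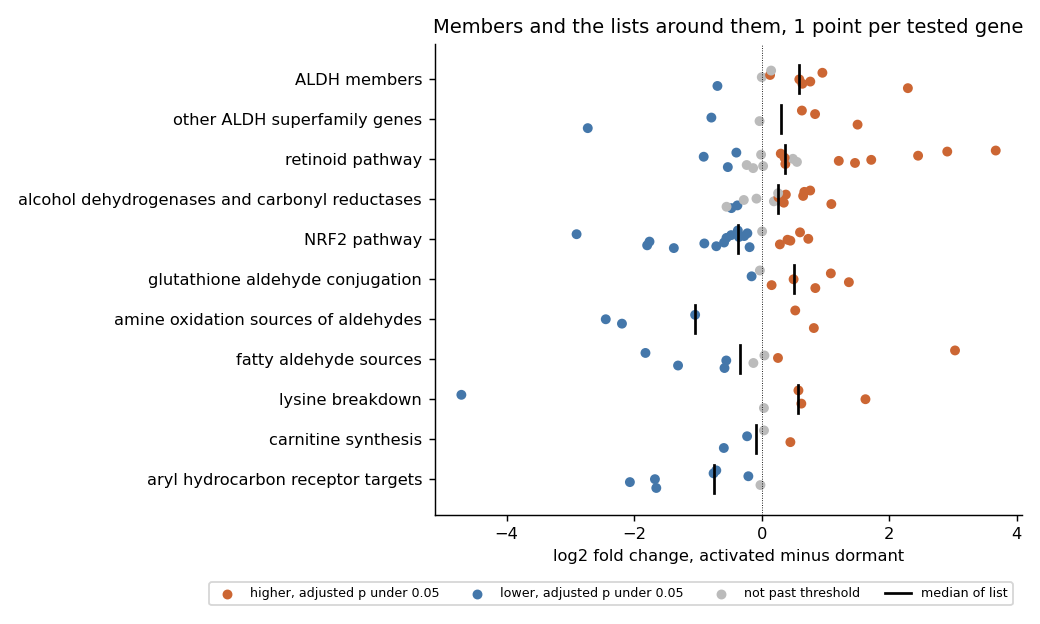
Each point is the log2 fold change of a tested gene (activated minus dormant), orange where called higher, blue where called lower and grey otherwise, and black lines give each list's median. The 9 members have a median of 0.59, the NRF2 pathway -0.37 and the aryl hydrocarbon receptor list -0.75.

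The genes most like ALDH1A1 were those whose log2 CPM over the 6 libraries, centred on each gene's mean, differed least from it. Among 11082 genes compared, these were TYMS, thymidylate synthase (root mean square difference 0.019 on the log2 scale, log2 fold change 2.33), IGFBP4, a binding protein of insulin-like growth factors (0.038, log2 fold change 2.31), and AOX1, aldehyde oxidase (0.040, log2 fold change 2.37). AOX1 went from 13.5 ± 0.386 to 69.8 ± 0.951 CPM (SD, n = 3). The genes most like ALDH1A3 were ZNF462 (0.034), UTP23 (0.041) and FYN (0.048), which fell 1.61-fold, 1.58-fold and 1.76-fold.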

How the data were processed

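RNA sequencing had been done on 6 libraries, 3 per group, of total RNA extracted with TRIzol and prepared with a VAHTS Universal V6 kit, per the labels' protocols. The deposited counts are whole reads per gene symbol, and the deposited FPKM are the same counts over a gene length and over the library's count total, since the implied length was the same in all libraries (relative spread at most 1.35e-09) for the 10754 genes with at least 100 counts in each. The submitters' processing notes list GRCh38 as the build, with HTSeq, HISAT2 and fastp as tools. Their versions, the annotation and the strand setting are not stated there.

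Counts were tested with edgeR 4.0.16 (R 4.3.3) by quasi-likelihood with TMM factors after its default low-count filter, p-values being adjusted by Benjamini-Hochberg over 13336 genes. SE is the log2 fold change over the square root of F. On simulated counts for this comparison (13237 genes passing the filter) 64% of genes changed 1.25-fold and 91.8% of those changed 2-fold were recovered, and 4 of 163 calls were false. The simulation held only 48 to 50 changed genes at each fold, whereas 73.7% of genes were called in the data. Its recovery and false calls may therefore not carry over to them. FPKM per library were compared directly. Coordinates and promoters are from RefSeq GRCh38.p14, exon overlaps and 50-base stretches from GENCODE 29.

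The members and lists were chosen with earlier results of these data known. Named were all superfamily genes, and per list up to 2 of the largest called rises and 2 of the largest called falls (mean log2 CPM 2 or more), and, for the member with the largest rise and that with the largest fall, the 3 most similar genes. CCAAT was searched after the data were seen. Alternatives were other scalings, DESeq2 1.42.0, limma 3.58.1 on log2(FPKM + 1) or log2(FPKM + 0.1), other filters, the replicate block and leaving out each library. A count of 0 allows up to 3 counts, for counting error only.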

Additional observations from a re-analysis of the deposited data

How the results depend on the processing

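ALDH1A1, ALDH1B1, ALDH2, ALDH3A1 and ALDH7A1 stayed higher and ALDH1A3 lower, past the threshold, under every alternative run that included them, ALDH1A1 at log2 fold changes of 2.15 to 2.31 and ALDH1A3 at -0.83 to -0.61. With total counts, 2 members were called lower, ALDH1A3 and ALDH3A2 (-0.139, adjusted p = 0.0252), and ALDH3B1 was not called (-0.00855, adjusted p = 0.884). With unfiltered limma on log2(FPKM + 1), the same 2 were called lower, ALDH3A2 at -0.135 (adjusted p = 0.0494), and ALDH3B1 was not called (-0.00711, adjusted p = 0.914). With the filtered log2(FPKM + 1) and log2(FPKM + 0.1), ALDH3B1 was at -0.00711 and -0.00717 and not called. These settings share the scaling by totals. With upper-quartile factors ALDH3B1 was at 0.105 (adjusted p = 0.0655). Leaving out 1 library gave 0.11 to 0.17 for ALDH3B1 and 0.078 to 0.225 for ALDH9A1. The calls of all genes, 9830, were 8959 to 10009 elsewhere, and their higher share of 49.5% was 39.7% with total counts. In the fit with a replicate block, 9789 genes were called and the members' calls were the same, 6 higher and 1 lower. Deviations of same-numbered libraries correlated at 0.00229, 0.0177 and 0.00333, and they were not treated as pairs. Leaving ALDH1A1 out of the totals, chosen after the data were seen, changed no other member's call. Of 765 values of other named genes, 748 kept direction and side of the threshold, 17 changed side and 0 reversed. Among 408 values of the list counts, 377 were classed as the same and 31 as changed. A count close to the main one was classed as the same, so counts in that class could still differ. Depth limited ALDH1A2, ALDH8A1, ALDH3B2 and ALDH1L1.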

Other observations

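Chromosomal neighbours of the members, named after their values were seen, did not all move with them. LRRK1, a kinase gene 2730 bases from ALDH1A3, had a log2 fold change of 1.17 (adjusted p = 1.93e-09), while ALDH1A3 fell. ULK2, an autophagy kinase gene 22531 bases from ALDH3A1, was at -1.20 (adjusted p = 3.6e-10), while ALDH3A1 rose. ANXA1, the annexin gene 198811 bases from ALDH1A1, was at 0.90 (adjusted p = 7.85e-10). ALDH3B1 lies 1404 bases from NDUFS8, a subunit of respiratory complex I, at 0.79, and 4449 bases from UNC93B1, a trafficking protein of Toll-like receptors, at 1.04. MGST3, a glutathione transferase gene 6079 bases from ALDH9A1, was at -0.03 (adjusted p = 0.68).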
